A study of Mus musculus with 9 samples.

Results

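The genes described here encode the machinery that makes ribosomes: 5 subunits of RNA polymerase I and 37 proteins that process ribosomal RNA and assemble it into ribosomal subunits. They were chosen by name, as the protein-coding genes called Nop, Utp or Rrp followed by a number, Polr1a to Polr1e, and Ncl, Npm1, Fbl, Gnl2, Gnl3, Bop1, Pes1, Wdr12, Wdr43, Nolc1 and Dkc1. This gave 42 of the 24187 genes in the deposited tables. All 42 are in both tables and all 42 passed the filter on low values.

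RNA was sequenced from bone-marrow-derived macrophages of C57BL/6 mice aged 8 weeks, cells grown from marrow for 6 days with macrophage colony-stimulating factor (M-CSF, 10 ng/ml). The 3 groups, of 3 libraries each, were cells given lipopolysaccharide (LPS, 500 ng/ml) with NCT503 (50 µM) for 6 h, cells given LPS (500 ng/ml) alone for 6 h, and cells kept in medium alone for 6 h. LPS is a bacterial cell wall component that activates macrophages through Toll-like receptor signalling. NCT503 inhibits PHGDH (phosphoglycerate dehydrogenase), which catalyses the entry step of serine synthesis from a glycolytic intermediate. No group received NCT503 without LPS, so what the compound does in resting cells was not measured, and no second inhibitor or Phgdh mutant was analysed here. Whether the 3 libraries of a group came from separate cultures or animals is not stated in the labels, and p-values therefore cover the spread between libraries, which may be technical.

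Ribosome production starts in the nucleolus, where RNA polymerase I transcribes the ribosomal DNA repeats into a long precursor. The small subunit processome, which holds many Utp proteins, folds and cleaves the part that becomes 18S rRNA, while another set of factors matures the 60S subunit. Small nucleolar RNAs (snoRNAs), carried by proteins such as fibrillarin and dyskerin, direct the 2′-O-methylation and pseudouridylation of the precursor. The transcription factor MYC is known to raise many of these genes through E-boxes.

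Levels are normalized reads, which are the reads of a gene over the size factor of its library, with all 9 libraries on 1 scale. Fold changes are on the log2(normalized reads + 1) scale and are given with their standard error (SE). A gene is said to rise or fall where its adjusted p was under 0.05 in limma, with adjustment over all genes tested. The LPS libraries serve in both the comparison with NCT503 and the comparison with untreated cells, so these 2 sets of fold changes are not independent and are only set side by side. In bulk RNA, fewer cells of a type and less RNA per cell cannot be told apart.

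The libraries held 20295862 to 23599685 reads over 21434 genes. The macrophage markers Adgre1, Csf1r, Cd68, Itgam, Mertk, Fcgr1, Lyz2 and Cd14 were all present in every group. Their summed levels were 204174 to 265680 normalized reads in LPS with NCT503, 423359 to 473403 in LPS alone and 270951 to 347154 in untreated cells. Much of each sum was Lyz2. Cd14 had 75244 to 90464 in LPS alone and 3244 to 4658 in untreated cells, so the sums do not measure macrophage content. Neutrophil markers (7 of 8 listed, none at 0 in any group) summed to 245 to 542 normalized reads in LPS with NCT503, 2549 to 6159 in LPS alone and 4397 to 7581 in untreated cells. Fibroblast and endothelial markers, all 8 listed, summed to 16597 to 41809, 15708 to 33964 and 5596 to 25831 normalized reads in the same order of groups. Eosinophil, basophil and mast cell markers (7 of 7 listed, with 1 at 0 in LPS with NCT503) summed to 226 to 253, 1132 to 1640 and 907 to 1037. T and NK cell markers, mostly Cd4, summed to 3156 to 5177, 1938 to 2413 and 3833 to 6438. Dendritic cell markers gave 69.7 to 121, 51.8 to 85.2 and 9.62 to 38.3. B cell and erythroid markers each summed to at most 92.9 in any library. Among neutrophil markers Camp was higher in LPS alone (86.4 to 146) than in untreated cells (28.7 to 46.5). Mpo, Elane and Prtn3 were lower, and Ngp, S100a8 and S100a9 overlapped. Library 2 of LPS with NCT503 stood apart. Across genes, its log2 values correlated at 0.965 and 0.970 with the other 2 libraries of its group. Those 2 correlated at 0.991 with each other. Untreated library 1 also stood apart, at 0.979 and 0.973 with untreated libraries 2 and 3, which correlated at 0.991. The fibroblast and endothelial sum of 25831 was that of untreated library 1. Col1a1 had 15351 normalized reads there, against 3444 and 5690 in untreated libraries 2 and 3, and Cdh5 had 362 against 30.8 and 24.8. The part of these differences in the results below was not tested.

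The genes that changed most are introduced first by the sequence before their start sites. These are the 100 bases upstream, from RefSeq (GRCm38.p6, the assembly of mm10), of the 5 members with the largest rise under NCT503 among those in the RefSeq promoter table, of Rrp7a, which fell most, and of Utp18 and Nop2, which hold an E-box in this stretch. Each reads 5′ to 3′ on the strand of the gene and ends at the base before the start. The start is the RefSeq one. For Utp14a and Utp15 it lies inside the gene coordinates given below, so part of each of these 2 stretches is within the gene. Capitals mark the E-box CACGTG or the variant E-box CACGCG, which reads CGCGTG on the opposite strand.
Gnl3, chr14:31019132-31019231, minus strand: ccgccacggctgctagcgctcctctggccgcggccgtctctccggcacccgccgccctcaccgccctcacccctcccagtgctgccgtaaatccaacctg
Ncl, chr1:86359456-86359555, minus strand: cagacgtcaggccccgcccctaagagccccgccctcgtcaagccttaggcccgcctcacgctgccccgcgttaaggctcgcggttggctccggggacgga
Utp14a, chrX:48256834-48256933, plus strand: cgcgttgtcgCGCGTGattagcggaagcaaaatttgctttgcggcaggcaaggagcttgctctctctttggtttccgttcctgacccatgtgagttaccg
Nop14, chr5:34660149-34660248, minus strand: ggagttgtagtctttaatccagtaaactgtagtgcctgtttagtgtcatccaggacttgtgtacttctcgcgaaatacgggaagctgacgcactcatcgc
Utp15, chr13:98262993-98263092, minus strand: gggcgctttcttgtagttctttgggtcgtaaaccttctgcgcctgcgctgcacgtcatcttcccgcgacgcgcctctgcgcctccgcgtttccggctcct
Rrp7a, chr15:83122802-83122901, minus strand: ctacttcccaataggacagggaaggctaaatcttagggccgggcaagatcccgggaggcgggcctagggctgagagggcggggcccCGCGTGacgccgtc
Utp18, chr11:93885767-93885866, minus strand: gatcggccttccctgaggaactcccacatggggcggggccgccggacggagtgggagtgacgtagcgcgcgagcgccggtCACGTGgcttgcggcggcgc
Nop2, chr6:125131783-125131882, plus strand: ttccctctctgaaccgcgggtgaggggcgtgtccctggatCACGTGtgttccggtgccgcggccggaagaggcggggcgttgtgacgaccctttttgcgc
The 2 genes that rose most, Gnl3 and Ncl, held neither form in these 100 bases, nor in the whole window of 250 bases before to 50 bases after the start.

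Of the 42 members, 33 matched the RefSeq promoter table, with 38 promoters. Searched on both strands over 300 bases, CACGTG was in the promoters of 8 members: Nop2, Pes1, Rrp7a, Utp14b, Utp18, Utp20, Utp4 and Wdr43. These were 21.1% of the 38 member promoters, against 7.15% of all 32851 promoters and 9.14% of the 15364 promoters of protein-coding genes in the deposited tables. CACGCG was in 28.9% of member promoters, against 9.27% of all promoters and 15.3% of those of protein-coding genes. Mean GC content was 59.2% in member promoters and 59.6% in those of protein-coding genes. The C/EBP-ATF element TGATGNAA was in 1 member promoter, that of Nop14, 2.63% of member promoters, against 3.97% of all promoters and 2.47% of those of protein-coding genes. The CLEAR element, a longer palindrome around the E-box, was in 0 member promoters and in 0.326% of all promoters. A match is a description of letters in a window and not a bound site.

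With NCT503 added to LPS, 17 of the 42 members were higher and 4 were lower than with LPS alone, and 21 were not called. Among all 19795 genes tested, 32.6% were called, 16.9% higher and 15.7% lower. The median log2 fold change of the members was 0.30, against 0.08 for all genes tested. With LPS alone, 6 members were higher and 13 lower than in untreated cells, where 41.8% of 19975 genes were called, 20.5% higher and 21.4% lower. The median was -0.32 for the members and -0.05 for all genes. In LPS with NCT503 against untreated cells, 13 members were higher and 3 lower, where 40.4% of 19930 genes were called, 20.7% higher and 19.7% lower. The median was 0.20 for the members and 0.05 for all genes. The counts by role and by gene list below come from the same fits, so the shares of all genes given here apply to them too. Without library 2 of LPS with NCT503 the counts were 16 higher and 4 lower against LPS alone (18.9% and 17.9% of all genes). Against untreated cells they were 15 higher and 9 lower (23% and 22.5% of all genes). Also left out in turn were LPS library 2, LPS library 3, and libraries 1 and 3 of LPS with NCT503. The members higher than in LPS alone then numbered 11, 10, 11 and 11, against 12.7%, 12.4%, 12.6% and 11.2% of all genes.

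**Figure D1:**
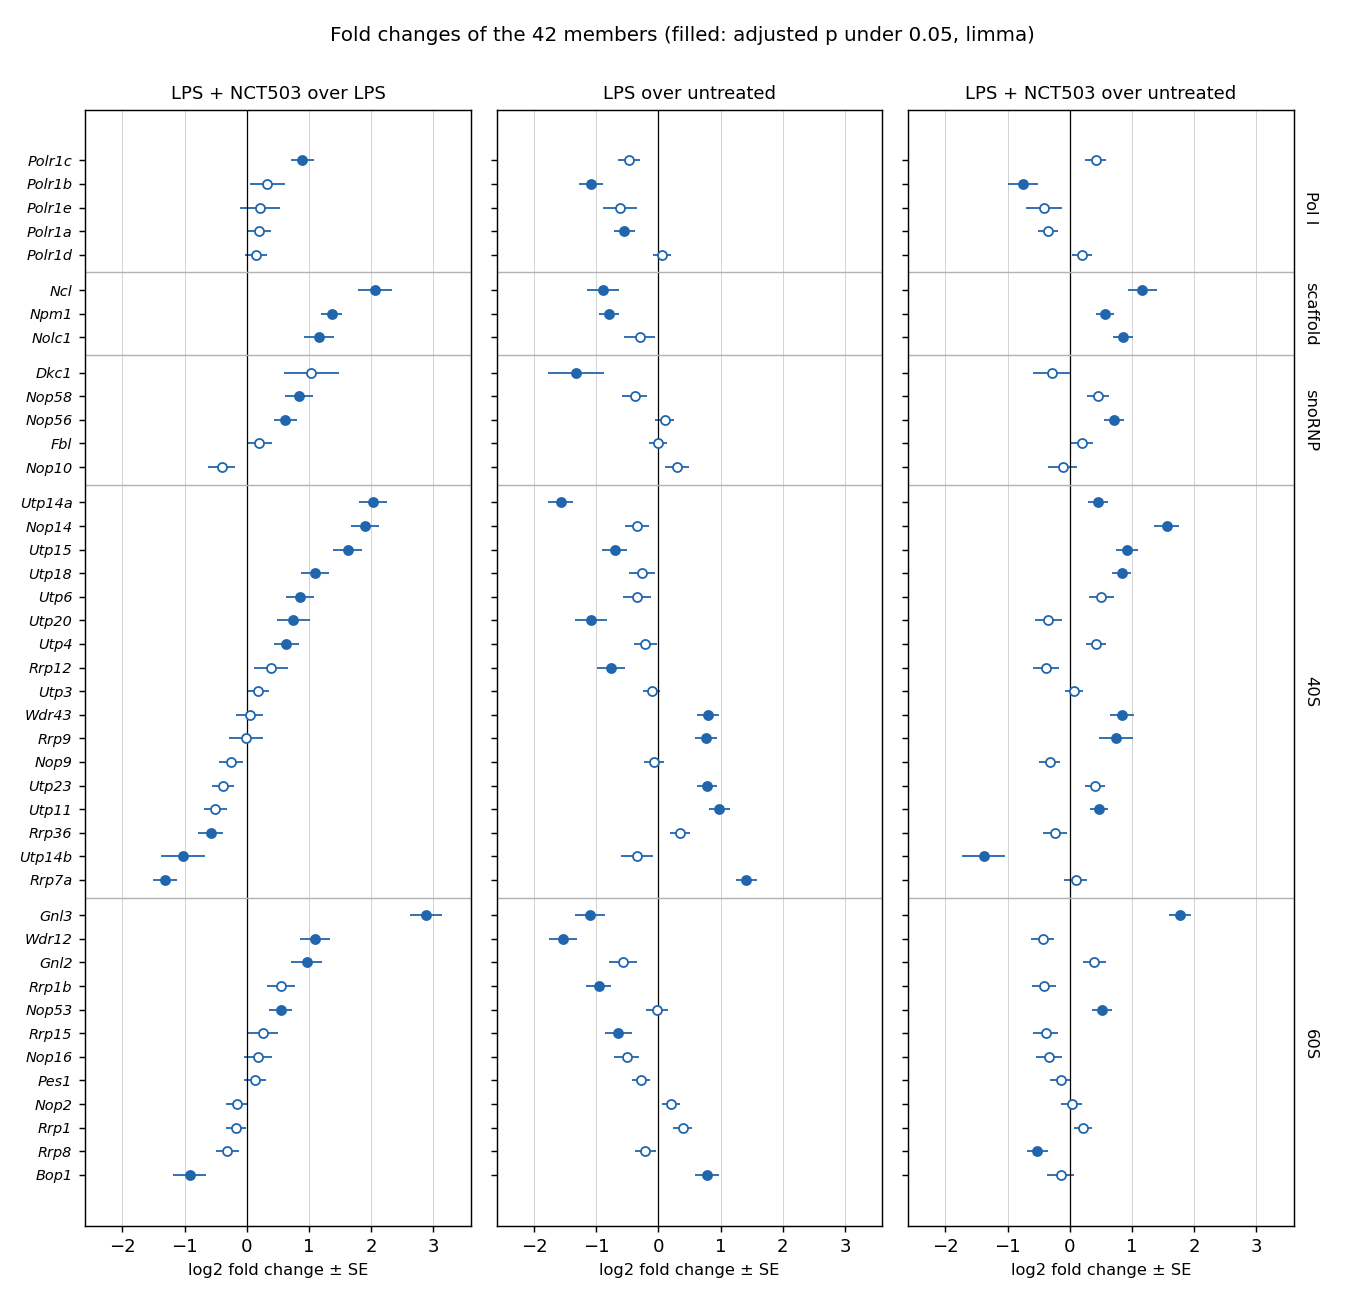
Log2 fold change ± SE of each of the 42 members, by role from top to bottom, in LPS with NCT503 over LPS alone (left), LPS alone over untreated cells (middle) and LPS with NCT503 over untreated cells (right). Filled points have an adjusted p under 0.05 (limma). All 3 scaffold genes rose in the left and right panels, while Rrp7a, at -1.31, lay at the far low end of the left panel and, at 1.42, at the far high end of the middle one.

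The scaling of the libraries changes how the members compare with untreated cells. Summed over the 42 members, normalized reads were 37715 to 38760 in LPS with NCT503, 26420 to 30355 in LPS alone and 26837 to 28896 in untreated cells. In this sum LPS with NCT503 lay above both other groups, which overlapped. Abundant members weigh most in it. Means in LPS with NCT503 and in LPS alone were 5208 and 1278 for Ncl, 4837 and 1892 for Npm1 and 5349 and 3708 for Nop53. Rrp1 (3038 and 3435) and Rrp7a (1532 and 3802) went the other way. By the test against LPS alone, 17 members rose, 4 fell and 21 were not called. As a share of all reads, the members took 0.164% to 0.176% in LPS with NCT503, 0.0979% to 0.118% in LPS alone and 0.163% to 0.180% in untreated cells. On this measure LPS alone lay below both other groups and LPS with NCT503 overlapped untreated cells. Scaling to library totals (CPM) moved the median of all genes by 0.23 for LPS with NCT503 over LPS alone, by -0.63 for LPS alone over untreated cells and by -0.42 for LPS with NCT503 over untreated cells. The members called were then 18 higher and 1 lower, 1 higher and 34 lower, and 2 higher and 14 lower, in that order. Among all genes tested, CPM scaling called 21.9% higher and 10.6% lower, 10.3% higher and 42% lower, and 12.3% higher and 33% lower. Set against the median of all genes on the CPM scale, which was 0.31, -0.69 and -0.38, the members' medians were 0.54, -1.02 and -0.25. Of the members called higher than in untreated cells, Gnl3 and Nop14 kept their call on the CPM scale with NCT503 and Rrp7a kept it with LPS alone.

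**Figure D2:**
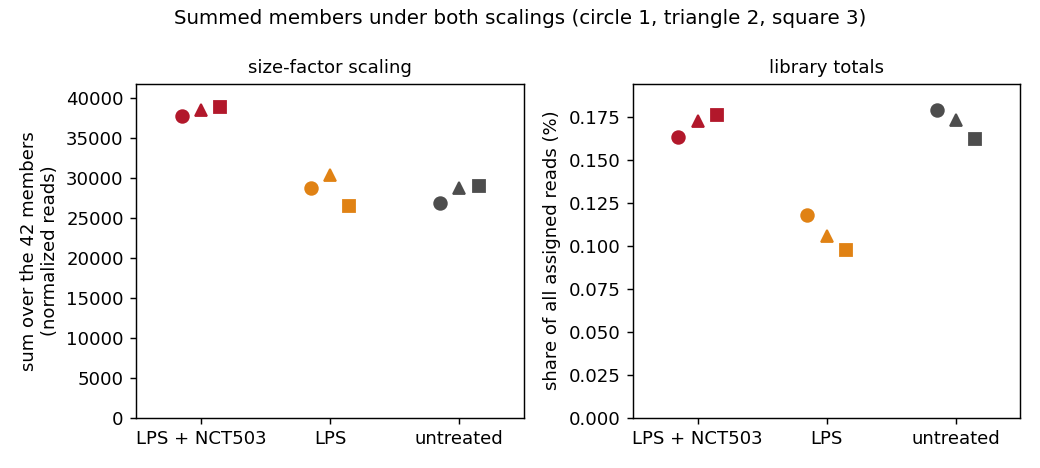
Sum of the 42 members in each library, as normalized reads (left) and as a percentage of all assigned reads (right), for LPS with NCT503, LPS alone and untreated cells. Each point is 1 library. On the left LPS with NCT503 (37715 to 38760) lies above both other groups, and on the right LPS alone (0.0979% to 0.118%) lies below both. Abundant members such as Ncl, Npm1 and Nop53 weigh most in these sums.

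Per kilobase of the gene length in the deposited tables, the members' mean levels in LPS with NCT503 ran from 3.33 normalized reads per kb for Utp14b to 1815 for Npm1. Nop53 (1391) and Rrp1 (910) came next. In LPS alone the order was Rrp1 (1029), Nop53 (964), Npm1 (710) and Rrp7a (703). Untreated cells had Npm1 (1232), Nop53 (972) and Rrp1 (790) at the top. Npm1 therefore led per kb in LPS with NCT503 and in untreated cells but not in LPS alone. Orders per kb, here and below, rest on the deposited gene length, which was not checked against the transcripts present. In LPS with NCT503 Ncl (length 10188 bases) had a mean of 5208 normalized reads, 511 per kb. Npm1 (2665 bases) had a mean of 4837. Wdr12 (11955 bases) and Polr1a (11871 bases) also have long entries.

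Among the nucleolar scaffold and chaperone genes, all 3 rose with NCT503 relative to LPS alone, 2 fell with LPS alone relative to untreated cells, and all 3 were higher in LPS with NCT503 than in untreated cells. Ncl (chr1:86344719-86359400) encodes nucleolin, an abundant nucleolar RNA-binding protein that acts on ribosomal DNA transcription and early rRNA processing. It had 5827, 3703 and 6093 normalized reads in LPS with NCT503, 1847, 975 and 1014 in LPS alone and 2865, 2363 and 1738 in untreated cells. Every library of LPS with NCT503 was above every other library, whereas LPS alone overlapped untreated cells through its library 1. The log2 fold change was 2.06 ± 0.27 over LPS alone (limma adjusted p = 0.000168), the largest of the 3 genes. LPS alone over untreated cells gave -0.89 ± 0.25 (adjusted p = 0.0147), a call lost without LPS library 2 (0.0596), LPS library 3 (0.0872) or untreated library 1 (0.0622). LPS with NCT503 over untreated cells gave 1.16 ± 0.23 (adjusted p = 0.00268, and 0.0558 with CPM scaling).

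Npm1 (chr11:33152287-33163206) encodes nucleophosmin, a histone and ribosomal protein chaperone that forms much of the outer, granular part of the nucleolus. Its libraries were tight, with 4638, 4726 and 5147 normalized reads in LPS with NCT503, 2007, 2056 and 1613 in LPS alone and 2932, 3621 and 3298 in untreated cells. The 3 groups did not overlap, and LPS alone was the lowest. The log2 fold change was 1.36 ± 0.17 over LPS alone (limma adjusted p = 0.000107), -0.79 ± 0.16 for LPS alone over untreated cells (0.00160) and 0.56 ± 0.14 for LPS with NCT503 over untreated cells (0.0103). The last was not called without library 3 of LPS with NCT503 (0.0544) or with CPM scaling (0.50) or quantile normalization (0.804). Nolc1, which encodes Nopp140, a phosphoprotein that binds snoRNPs in the nucleolus and Cajal bodies, had 550, 477 and 536 normalized reads in LPS with NCT503, 339, 166 and 223 in LPS alone and 329, 283 and 256 in untreated cells. It was 1.16 ± 0.25 above LPS alone on the log2 scale (limma adjusted p = 0.00408) and 0.85 ± 0.17 above untreated cells (0.00223, and 0.109 with CPM scaling). LPS alone did not pass the test against untreated cells (-0.30 ± 0.24, adjusted p = 0.354).

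Of the 5 RNA polymerase I subunits measured here, 1 rose with NCT503 over LPS alone and none fell, 2 fell with LPS alone relative to untreated cells, and 1 was lower in LPS with NCT503 than in untreated cells. Polr1a (chr6:71909053-71984935) and Polr1b (chr2:129100995-129126594) encode the largest and second-largest subunits, which together form the catalytic centre. Polr1b had 97.9, 169 and 92.0 normalized reads in LPS with NCT503, 100, 79.1 and 95.7 in LPS alone and 185, 204 and 195 in untreated cells. Both LPS groups lay below all untreated libraries, and they overlapped each other. Against untreated cells Polr1b fell by 1.08 ± 0.19 on the log2 scale with LPS alone (limma adjusted p = 0.000880) and held in all 6 fits that left out 1 library. With NCT503 it was -0.75 ± 0.25 relative to untreated cells (adjusted p = 0.0323), a call lost without library 1 (0.108) or library 3 (0.127) of LPS with NCT503 and without untreated library 1 (0.0560), 2 (0.108) or 3 (0.0860). The difference from LPS alone did not pass the test (0.33 ± 0.27, adjusted p = 0.385).

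Polr1a had 250, 292 and 295 normalized reads in LPS with NCT503, 280, 233 and 219 in LPS alone and 368, 356 and 345 in untreated cells. Untreated cells were the highest, and the other 2 groups overlapped. The log2 fold change of LPS alone over untreated cells was -0.55 ± 0.17 (limma adjusted p = 0.0198), not called without LPS library 2 (0.0510), LPS library 3 (0.0811) or untreated library 2 (0.0870). The values were 0.20 ± 0.19 over LPS alone (adjusted p = 0.466) and -0.35 ± 0.16 for LPS with NCT503 over untreated cells (0.105). Polr1c (chr17:46243920-46248054), whose product is shared with RNA polymerase III, was the subunit that NCT503 raised. It had 644, 801 and 715 normalized reads in LPS with NCT503, 332, 435 and 401 in LPS alone and 471, 522 and 635 in untreated cells, so LPS with NCT503 was above and LPS alone below every untreated library. The rise over LPS alone was 0.89 ± 0.19 (limma adjusted p = 0.00365) and was called in all 6 fits without 1 library. LPS with NCT503 over untreated cells gave 0.41, which did not pass the test and changed sign with CPM scaling. LPS alone over untreated cells gave -0.47 ± 0.18 (0.0503), just outside the threshold. It was called lower by edgeR (0.0206) and DESeq2 (0.0436), with all 9 libraries in 1 fit (0.0441), with TMM (0.0186), CPM (0.000127) and quantile (0.0284) scaling and with the replicate block (0.00690).

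Polr1d, the other subunit shared with RNA polymerase III, had 791, 906 and 984 normalized reads in LPS with NCT503, 753, 832 and 831 in LPS alone and 689, 772 and 871 in untreated cells. All 3 groups overlapped, and no comparison passed the test (limma adjusted p = 0.536, 0.770 and 0.350 in the order used in the plot of fold changes). Polr1e, which encodes a subunit of the module that helps start transcription, was low, at 38.7, 59.3 and 32.5 normalized reads in LPS with NCT503, 46.1, 32.7 and 31.5 in LPS alone and 54.7, 51.8 and 63.3 in untreated cells. Its log2 fold changes of 0.21 ± 0.32, -0.62 ± 0.27 and -0.41 ± 0.29, in the same order, did not pass either. Per kb the subunits spanned 11.2 (Polr1e) to 316 (Polr1c) normalized reads per kb in LPS with NCT503, so the shared subunits Polr1c and Polr1d were far above the 3 subunits specific to RNA polymerase I.

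**Figure D3:**
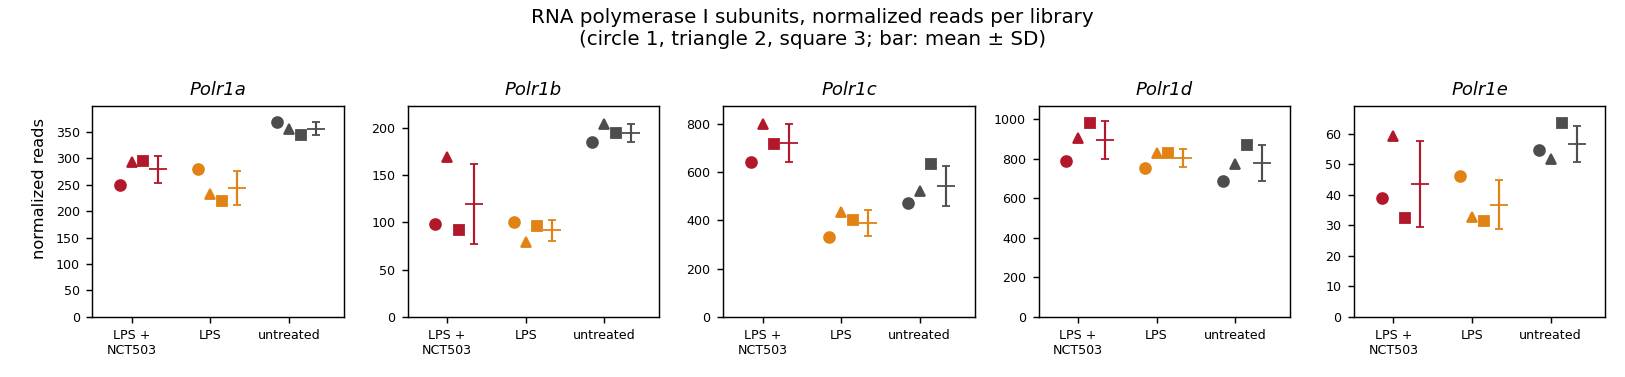
Normalized reads of the 5 RNA polymerase I subunits in each library, for LPS with NCT503, LPS alone and untreated cells. Symbols are single libraries and the bar beside them is the mean ± SD of 3. Polr1b is at most 169 in both LPS groups and 185 to 204 in untreated cells, while Polr1c is highest in LPS with NCT503 (644 to 801).

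The small subunit processome and 40S assembly factors moved in both directions. Of 17 genes, 7 rose and 3 fell with NCT503 over LPS alone. With LPS alone 5 were higher and 4 lower than in untreated cells, and in LPS with NCT503 7 were higher and 1 lower than in untreated cells. Utp14a (chrX:48256862-48282453), whose yeast counterpart activates a helicase that frees the U3 snoRNA from the precursor, had 544, 463 and 570 normalized reads in LPS with NCT503, 167, 112 and 111 in LPS alone and 372, 404 and 371 in untreated cells. The groups did not overlap: LPS alone was the lowest and LPS with NCT503 the highest. Its log2 fold change was 2.03 ± 0.22 over LPS alone (limma adjusted p = 4.22e-05) and -1.57 ± 0.20 for LPS alone over untreated cells (7.01e-05), and both were called without any single library. LPS with NCT503 was 0.45 ± 0.16 above untreated cells (0.0412), a call lost without library 1 (0.119) or 3 (0.153) of LPS with NCT503 or without untreated library 1 (0.0835), 2 (0.113) or 3 (0.115). TMM scaling (0.0788), quantile normalization (0.0591), 1 fit of all 9 libraries (0.0768) and the replicate block (0.0740) also ended it, and with CPM scaling the value was 0.0040 (0.986).

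Nop14 (chr5:34638536-34660148), a processome protein needed for 18S rRNA, had 1167, 786 and 1226 normalized reads in LPS with NCT503, 349, 247 and 247 in LPS alone and 386, 379 and 299 in untreated cells. The last 2 groups overlapped (-0.34 ± 0.19, limma adjusted p = 0.184), and LPS with NCT503 stood well above both. Its log2 fold change was 1.91 ± 0.23 over LPS alone (adjusted p = 8.24e-05) and 1.56 ± 0.20 over untreated cells (0.000164). Utp15 (chr13:98246845-98263041), a subunit of the UTP-A complex that binds the nascent precursor first, showed 967, 676 and 897 normalized reads in LPS with NCT503, 371, 221 and 243 in LPS alone and 454, 461 and 417 in untreated cells, again with no overlap. It rose by 1.63 ± 0.23 over LPS alone (limma adjusted p = 0.000309) and was 0.92 ± 0.17 above untreated cells (0.00188, and 0.0605 with CPM scaling). With LPS alone it was -0.70 ± 0.20 relative to untreated cells (0.0161), not called without LPS library 2 (0.0604), LPS library 3 (0.0774) or untreated library 2 (0.0688).

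Utp18, whose yeast counterpart recruits the exosome to the processome, had 570, 489 and 532 normalized reads in LPS with NCT503, 327, 245 and 188 in LPS alone and 316, 285 and 289 in untreated cells. It rose by 1.10 ± 0.22 over LPS alone (limma adjusted p = 0.00296) and was 0.83 ± 0.16 above untreated cells (0.00168, and 0.0820 with CPM scaling). Among the other genes of this role, Utp6 (0.86 ± 0.23, limma adjusted p = 0.0131), Utp4 (0.64 ± 0.20, 0.0277) and Utp20 (0.75 ± 0.26, 0.0488) rose with NCT503 over LPS alone. Each of these 3 calls was lost without LPS library 2 (adjusted p = 0.0526, 0.0782 and 0.135 for Utp6, Utp4 and Utp20), LPS library 3 (0.0750, 0.130 and 0.192), or library 1 (0.0609, 0.0633 and 0.155) or library 3 (0.0577, 0.0951 and 0.154) of LPS with NCT503. That of Utp20 was also lost with a pseudocount of 0.1 (0.0562) and with quantile normalization (0.116). With LPS alone Utp20 fell by 1.09 ± 0.26 relative to untreated cells (limma adjusted p = 0.00507). Rrp12, known in yeast as an export factor of pre-ribosomes, fell by 0.77 ± 0.22 (0.0160), not called without LPS library 3 (0.0666) or untreated library 2 (0.0642) or 3 (0.0585), or with quantile normalization (0.0602).

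The opposite order was seen for Rrp7a (chr15:83113433-83122801), a component of the processome. It had 1418, 1876 and 1303 normalized reads in LPS with NCT503, 3238, 4502 and 3666 in LPS alone and 1178, 1493 and 1613 in untreated cells. LPS alone was above every other library, and the other 2 groups overlapped. The log2 fold change was -1.31 ± 0.20 over LPS alone (limma adjusted p = 0.000426) and 1.42 ± 0.18 for LPS alone over untreated cells (5.63e-05), and both were called without any single library and under each other setting tried. Exons of Rrp7a overlap those of Serhl on the opposite strand, and with no strand setting stated, the reads of the 2 genes may not be fully separated. LPS with NCT503 against untreated cells gave 0.10 ± 0.19 (0.713), a value that was -0.36 with CPM scaling and -0.20 with quantile normalization.

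Wdr43 (chr17:71616215-71659031), a UTP-A subunit, rose with LPS whether or not NCT503 was present. It had 888, 562 and 770 normalized reads in LPS with NCT503, 869, 584 and 691 in LPS alone and 439, 401 and 377 in untreated cells, so both LPS groups were above untreated cells and overlapped each other. The log2 fold change over untreated cells was 0.84 ± 0.19 with NCT503 (limma adjusted p = 0.00533) and 0.80 ± 0.18 with LPS alone (0.00320). With CPM scaling these were not called (0.146 and 0.720). Between LPS with NCT503 and LPS alone the difference was 0.05 ± 0.22 (0.894). Utp11, another processome protein, had 684, 619 and 667 normalized reads in LPS with NCT503, 1120, 926 and 780 in LPS alone and 474, 493 and 452 in untreated cells. The groups did not overlap, and LPS alone was the highest. LPS alone was 0.98 ± 0.16 above untreated cells (limma adjusted p = 0.000536, and 0.249 with CPM scaling). LPS with NCT503 was 0.47 ± 0.15 above them (0.0256), a call lost without library 1 (0.0872) or 3 (0.0879) of LPS with NCT503, or untreated library 2 (0.0928) or 3 (0.0865), with TMM (0.0511), CPM (0.921) or quantile (0.0575) scaling, or with the replicate block (0.0558). The difference between the LPS groups was -0.50 ± 0.18 (0.0550), outside the threshold.

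Rrp9, a U3 snoRNP protein, and Utp23 were also higher with LPS alone than in untreated cells, by 0.77 ± 0.18 (limma adjusted p = 0.00528) and 0.78 ± 0.16 (0.00177). Both calls were lost with CPM scaling (0.730 and 0.679). Rrp9 was 0.74 ± 0.27 higher in LPS with NCT503 than in untreated cells (0.0478), where library 2 of LPS with NCT503 had 940 normalized reads against 438 and 502 in the other 2 libraries. That call was lost without library 2 (0.0657) or 3 (0.0627) of LPS with NCT503 or untreated library 1 (0.131), 2 (0.117) or 3 (0.0634), with a pseudocount of 0.1 (0.0581), and with TMM (0.0759), CPM (0.416) or quantile (0.0568) scaling. Rrp36, an early processing factor, had 285, 427 and 308 normalized reads in LPS with NCT503, 485, 560 and 468 in LPS alone and 365, 372 and 452 in untreated cells. It was lower with NCT503 than with LPS alone (-0.58 ± 0.20, limma adjusted p = 0.0472). The call was lost without any library but library 2 of LPS with NCT503 (0.0689 to 0.174), and omitting the filter, TMM scaling, CPM scaling and edgeR each ended it (0.0519, 0.0532, 0.25 and 0.0546).

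Utp14b, an autosomal retrocopy of Utp14a that lies within the Acsl3 locus, was the least abundant member per kb in LPS with NCT503 (3.33) and in untreated cells (8.50), and second to Wdr12 (5.51) in LPS alone (6.58). It had 28.5, 14.6 and 33.6 normalized reads in LPS with NCT503, 55.3, 49.1 and 47.2 in LPS alone and 77.9, 65.1 and 52.9 in untreated cells. It was lower with NCT503 than with LPS alone (log2 fold change -1.03 ± 0.35, limma adjusted p = 0.0431) and than in untreated cells (-1.38 ± 0.35, 0.00917), whereas Utp14a was higher in both comparisons. The first call held only without library 3 of LPS with NCT503 (0.0640 to 0.103 without each of the other libraries), and CPM scaling (0.121) and DESeq2 (0.0613) also ended it. Utp14b shares exon sequence with Acsl3 on the same strand and resembles Utp14a, so its reads are uncertain. Utp3 and Nop9 were called in no comparison.

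**Figure D4:**
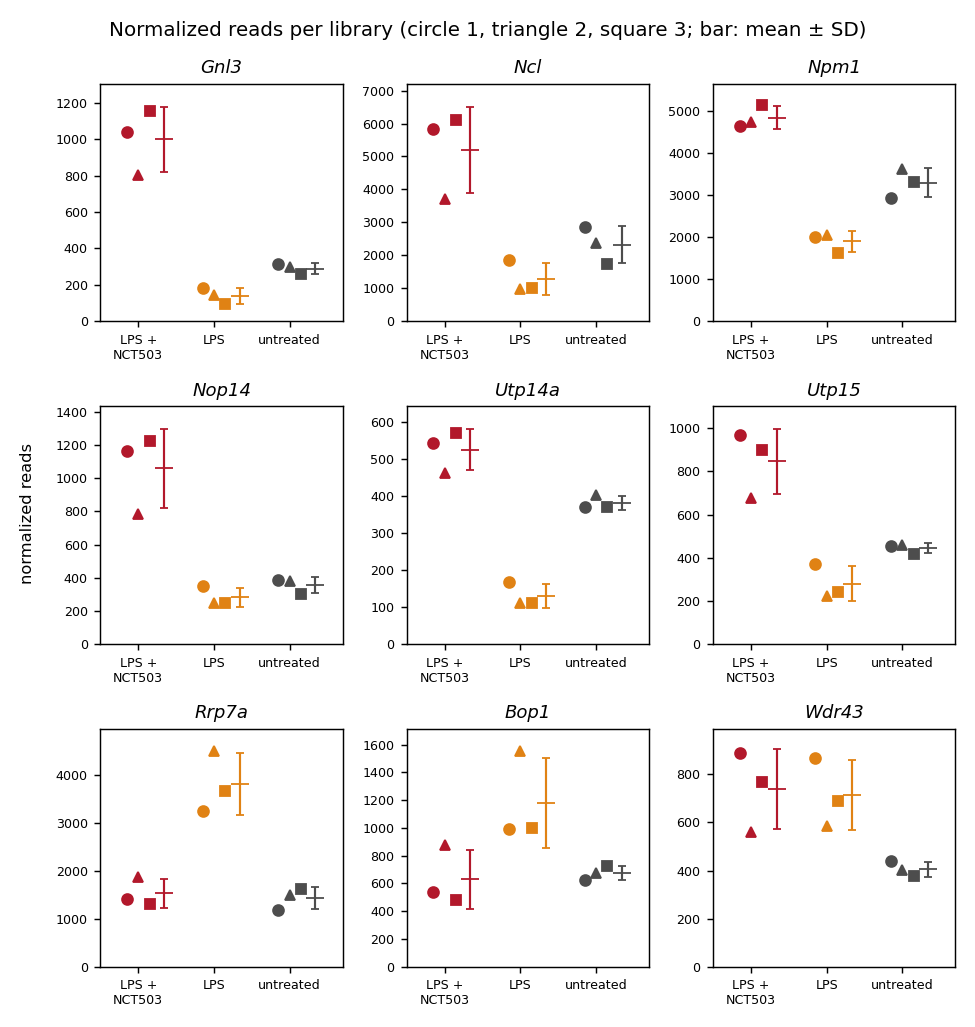
Normalized reads per library for 9 members in LPS with NCT503, LPS alone and untreated cells. Symbols are single libraries and the bar beside them is the mean ± SD of 3. Gnl3, Ncl, Npm1, Nop14, Utp14a and Utp15 are highest in LPS with NCT503, Rrp7a and Bop1 are highest in LPS alone, and Wdr43 is high in both LPS groups (562 to 888, against 377 to 439 in untreated cells).

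The large subunit factors included Gnl3, whose rise over LPS alone was the largest fold change of any member in any of the 3 comparisons. Of 12 genes, 4 rose and 1 fell with NCT503 over LPS alone, 1 was higher and 4 lower with LPS alone than in untreated cells, and 2 were higher and 1 lower in LPS with NCT503 than in untreated cells. Gnl3 (chr14:31012434-31019089) encodes nucleostemin, a nucleolar GTP-binding protein of stem and proliferating cells that takes part in pre-rRNA processing. It had 1038, 804 and 1155 normalized reads in LPS with NCT503, 181, 143 and 91.8 in LPS alone and 312, 298 and 257 in untreated cells. No libraries overlapped between groups, with LPS alone the lowest. The log2 fold change was 2.88 ± 0.26 over LPS alone (limma adjusted p = 1.22e-05), -1.10 ± 0.24 for LPS alone over untreated cells (0.00336) and 1.77 ± 0.18 for LPS with NCT503 over untreated cells (2.81e-05). All 3 were called without each single library and under each other setting. An exon of Gnl3 overlaps Pbrm1 on the opposite strand. Gnl2, a related GTP-binding protein, had 497, 342 and 418 normalized reads in LPS with NCT503, 303, 168 and 188 in LPS alone and 337, 330 and 281 in untreated cells. It rose by 0.96 ± 0.25 over LPS alone (limma adjusted p = 0.0124), not called without library 1 of LPS with NCT503 (0.0593), LPS library 2 (0.0600) or LPS library 3 (0.0617).

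The 3 proteins of the PeBoW complex, which act together in 28S and 5.8S rRNA processing, did not move together. Pes1, its pescadillo subunit, had 1033, 1406 and 1141 normalized reads in LPS with NCT503, 1138, 1102 and 1007 in LPS alone and 1193, 1329 and 1422 in untreated cells. It was called in no comparison (limma adjusted p = 0.595, 0.150 and 0.506 in the order of the plot of fold changes). Bop1 (chr15:76452996-76477269) had 535, 874 and 481 normalized reads in LPS with NCT503, 990, 1556 and 998 in LPS alone and 623, 678 and 725 in untreated cells. LPS alone was the highest, and library 2 was the highest within both LPS groups. LPS alone was 0.78 ± 0.19 above untreated cells (limma adjusted p = 0.00597, and 0.70 with CPM scaling). NCT503 gave -0.92 ± 0.26 relative to LPS alone (0.0179), lost without library 1 (0.0683) or 3 (0.0884) of LPS with NCT503 or LPS library 2 (0.0853), or with CPM scaling (0.0519). Wdr12 (chr1:60069785-60098645) had 141, 153 and 127 normalized reads in LPS with NCT503, 84.1, 54.5 and 59.0 in LPS alone and 169, 202 and 199 in untreated cells. The groups did not overlap, and here untreated cells were the highest. For Wdr12 the difference between LPS with NCT503 and untreated cells did not pass the test. It rose by 1.10 ± 0.25 over LPS alone (limma adjusted p = 0.00554), and LPS alone was -1.53 ± 0.23 relative to untreated cells (0.000225), with both calls kept without each single library. Bop1 overlaps exons of Mroh1, Wdr12 those of Carf and Pes1 those of 4930556J24Rik, all on the opposite strand. Other called members have such overlaps too: Gnl2 with Dnali1, Rrp1b with Hsf2bp, Rrp8 with Ilk, Rrp9 with Parp3, Dkc1 with Mpp1 and Nop56 with Idh3b. Exons of Polr1a, Nop14, Utp14a, Utp23 and Wdr43 overlap noncoding genes on the opposite strand. As for Rrp7a, the reads of all these pairs may not be fully separated.

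Among the other large subunit factors, Rrp1b, a nucleolar protein that also acts on transcription and splicing, had 106, 130 and 111 normalized reads in LPS with NCT503, 74.9, 87.3 and 74.7 in LPS alone and 171, 139 and 153 in untreated cells. It fell by 0.95 ± 0.20 with LPS alone relative to untreated cells (limma adjusted p = 0.00259). Rrp15 fell by 0.64 ± 0.22 (0.0365), a call lost without LPS library 2 (0.119) or untreated library 1 (0.0916), 2 (0.114) or 3 (0.0667), and with quantile normalization (-0.34, 0.235). Nop53, a 60S factor also known as Gltscr2 and abundant in every group, rose by 0.54 ± 0.19 with NCT503 over LPS alone (limma adjusted p = 0.0468), called without LPS library 2 but not without any other single library (0.0831 to 0.117) or with a pseudocount of 0.1 (0.0508). It was 0.52 ± 0.16 above untreated cells (0.0236), lost without library 3 of LPS with NCT503 (0.0553) or untreated library 1 (0.0561) or 2 (0.0851). With CPM scaling it was 0.07 (0.695) and with quantile normalization 0.0098 (0.963). Rrp8, a methyltransferase-like protein that also takes part in rDNA silencing, had 162, 173 and 173 normalized reads in LPS with NCT503, 215, 198 and 219 in LPS alone and 223, 253 and 258 in untreated cells. It was lower in LPS with NCT503 than in untreated cells (-0.53 ± 0.17, limma adjusted p = 0.0303), lost without library 1 (0.0902) or 3 (0.0770) of LPS with NCT503 or untreated library 2 (0.144) or 3 (0.103), with quantile normalization (0.0522) or with the replicate block (0.0609). Nop2, Nop16 and Rrp1 were called in no comparison.

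Of the 5 proteins of snoRNA-guided modification, 2 rose with NCT503 over LPS alone, 1 fell with LPS alone relative to untreated cells, and 1 was higher in LPS with NCT503 than in untreated cells. Fbl encodes fibrillarin, the methyltransferase of box C/D snoRNPs, and had 770, 1110 and 805 normalized reads in LPS with NCT503, 745, 871 and 696 in LPS alone and 719, 774 and 827 in untreated cells. All groups overlapped, and no comparison passed the test (limma adjusted p = 0.455, 0.988 and 0.417 in the order of the plot of fold changes). Its partners in the box C/D core were different. Nop56 had 691, 857 and 680 normalized reads in LPS with NCT503, 532, 420 and 496 in LPS alone and 454, 466 and 430 in untreated cells. It rose by 0.62 ± 0.18 over LPS alone (limma adjusted p = 0.0223) and was 0.71 ± 0.16 above untreated cells (0.00464, and 0.226 with CPM scaling). Nop58 had 359, 351 and 465 normalized reads in LPS with NCT503, 286, 200 and 178 in LPS alone and 314, 282 and 259 in untreated cells, and rose by 0.84 ± 0.23 over LPS alone (limma adjusted p = 0.0153). Both calls over LPS alone were lost without LPS library 2 (adjusted p = 0.0843 for Nop56 and 0.0583 for Nop58), LPS library 3 (0.0691 and 0.0804) or library 3 of LPS with NCT503 (0.0564 and 0.0866). That for Nop56 was also lost without library 1 of LPS with NCT503 (0.0504).

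Dkc1 (chrX:75095854-75109777) encodes dyskerin, the pseudouridine synthase of box H/ACA snoRNPs and of telomerase. It was low and uneven, with 48.9, 74.9 and 54.1 normalized reads in LPS with NCT503, 62.2, 16.4 and 21.0 in LPS alone and 102, 53.2 and 66.5 in untreated cells, and LPS alone overlapped both other groups. It fell by 1.32 ± 0.45 with LPS alone relative to untreated cells (limma adjusted p = 0.0357), a call lost without LPS library 2 (0.129), LPS library 3 (0.140) or untreated library 1 (0.129) or 3 (0.0860), with a pseudocount of 0.1 (0.0537), with quantile normalization (0.0918) and in edgeR (0.0665). The value over LPS alone was 1.03 ± 0.44 (0.0969). Nop10, another box H/ACA core protein, was called in no comparison.

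Besides coding for these proteins, 7 members are annotated hosts of snoRNAs in GENCODE M21: Gnl3, Nop53, Ncl, Wdr43, Dkc1, Nop56 and Nop58, with 5 snoRNAs in Nop56, 4 in Nop58 and 3 each in Ncl, Gnl3 and Wdr43. With NCT503 over LPS alone, 5 of these 7 rose and none fell, with a median log2 fold change of 0.84. Of the 35 members with no snoRNA, 12 rose and 4 fell, with a median of 0.20, against 16.9% and 15.7% of all genes. With LPS alone over untreated cells 1 host was higher and 3 were lower, with a median of -0.38. Of the others 5 were higher and 10 lower, with a median of -0.30, against 20.5% and 21.4% of all genes. Whether hosting a snoRNA bears on these changes was not tested. The snoRNAs of these hosts that are in both tables had at most 11.9 normalized reads in any library, so their own levels were not compared. Snord110 and Gm26287 are not in both tables and have no value on the joined scale. Others, among them those in Ncl, are in neither table.

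By promoter, the members were split by CACGTG alone, in the searched window. With NCT503 over LPS alone, 3 of the 8 with this E-box rose and 2 fell, with a median log2 fold change of 0.09. Of the 25 matched members without it, 10 rose and 1 fell, with a median of 0.33, against 16.9% and 15.7% of all genes. The split leaves the variant CACGCG on both sides. Among the 25 without CACGTG, the variant was in Nolc1, Polr1c, Utp14a and Utp15, which rose. It was also in Nop10, Nop16, Polr1e and Rrp1, which were not called. Pes1, Rrp7a and Utp14b held both forms. With LPS alone over untreated cells 2 of the 8 with CACGTG were higher and 1 lower. Of the 25 without CACGTG 1 was higher and 10 lower, against 20.5% and 21.4% of all genes. E-boxes outside the window were not searched for, and whether an E-box bears on these changes was not tested. The upstream sequences shown for Utp18 and Nop2 each hold an E-box, but Utp18 rose with NCT503 and Nop2 (670, 838 and 595 normalized reads in LPS with NCT503, against 791, 798 and 742 in LPS alone) was not called.

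Single libraries ranked differently for different members. Among the 17 members that rose with NCT503 over LPS alone, library 2 was the lowest of LPS with NCT503 for 11, and LPS library 1 was the highest of LPS alone for 14. Among the 21 members not called in that comparison, library 2 was the highest of LPS with NCT503 for 14. Over all 42 members library 2 of LPS with NCT503 was the highest of its group for 52.4% and the lowest for 35.7%, against 40.5% and 41.3% of all 19076 genes. LPS library 1 was the highest of its group for 57.1% of members, against 37.9% of all genes. LPS library 3 was the lowest of its group for 54.8% of members and the highest for 4.76%, against 24.1% and 27.4% of all genes.

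Beyond the 42, other genes of the pathway gave mixed counts. Shares of all genes to set beside them were 16.9% higher and 15.7% lower with NCT503 over LPS alone. With LPS alone over untreated cells they were 20.5% and 21.4%. Of 17 other RNA polymerase I subunits and initiation factors, 1 was higher and 3 lower with NCT503 over LPS alone, and 3 were higher and 4 lower with LPS alone than in untreated cells. Ubtf, the HMG-box factor that keeps ribosomal DNA open for RNA polymerase I, had 1544, 2186 and 1578 normalized reads in LPS with NCT503, 3494, 3467 and 3143 in LPS alone and 2339, 2482 and 2557 in untreated cells. It fell by 0.94 ± 0.18 with NCT503 relative to LPS alone (limma adjusted p = 0.00214). LPS alone was 0.46 ± 0.14 above untreated cells (0.0182), a call lost without untreated library 2 (0.0816) and a direction that turned with CPM scaling (-0.24) and quantile normalization (-0.19). Rrn3, which encodes TIF-IA, the factor that brings RNA polymerase I to the promoter, had 493, 448 and 509 normalized reads in LPS with NCT503, 560, 420 and 409 in LPS alone and 336, 322 and 350 in untreated cells. Its difference from LPS alone did not pass the test (0.08 ± 0.19, limma adjusted p = 0.783). Baz2a, a subunit of the nucleolar remodelling complex that silences ribosomal DNA, fell by 1.46 ± 0.16 with NCT503 relative to LPS alone (limma adjusted p = 4.22e-05), and Taf1d, a subunit of the promoter selectivity factor SL1, rose by 1.77 ± 0.25 (0.000250).

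Of 37 other small subunit factors, 11 were higher and 3 lower with NCT503 over LPS alone, and of 44 other large subunit factors 12 were higher and 6 lower. With LPS alone over untreated cells the counts were 6 higher and 12 lower, and 9 higher and 5 lower. Nat10, an RNA acetyltransferase of 18S rRNA, had a log2 fold change of 1.36 ± 0.20 with NCT503 over LPS alone and -1.29 ± 0.18 with LPS alone over untreated cells (limma adjusted p = 0.000345 and 0.000160). Nifk, which binds the Ki-67 protein, had 2.11 ± 0.19 and -0.996 ± 0.171 (1.47e-05 and 0.000640). Rcl1 and Noc4l ran the other way, like Rrp7a, with -1.47 ± 0.18 and 2.498 ± 0.156 for Rcl1 and -1.44 ± 0.21 and 1.35 ± 0.18 for Noc4l. Of 11 other snoRNP proteins 4 were higher and 1 lower with NCT503 over LPS alone and 3 were higher with LPS alone than in untreated cells, none lower. Of 22 RNA polymerase III genes 3 were higher and 3 lower with NCT503 over LPS alone, and 2 were higher and 8 lower with LPS alone.

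Among 19 genes of the MYC network and of nucleolar stress, 4 were higher and 3 lower with NCT503 over LPS alone. Of the 18 tested with LPS alone over untreated cells, 8 were higher and 4 lower. Myc had 993, 1130 and 968 normalized reads in LPS with NCT503, 300, 409 and 525 in LPS alone and 274, 186 and 248 in untreated cells, with no overlap between groups. It rose by 1.36 ± 0.22 with NCT503 over LPS alone (limma adjusted p = 0.000651) and was 2.14 ± 0.18 above untreated cells (8.34e-06), both kept without each single library. The rise with LPS alone over untreated cells, 0.78 ± 0.23 (0.0165), was lost without LPS library 3 (0.0921) or untreated library 2 (0.0915) and with CPM scaling (0.783). Mga, which encodes a MAX-binding repressor, rose by 2.75 ± 0.38 with NCT503 over LPS alone (limma adjusted p = 0.000255).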

How the data were processed

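RNA-seq of 9 libraries was analysed. Alignment was with TopHat2 and the build was mm10, per the submitters' processing notes. Not given in the sources used here are the counter, its strand setting and the annotation. Deposited by the authors were 2 tables, of 23001 and 22620 genes, which per the file headers and the values hold a signal, the reads of a gene over a library's size factor. The authors' deposited tables also give log2 fold changes and p-values, which called 7 members higher and 14 lower for LPS alone over untreated cells and 17 and 4 for LPS with NCT503 over LPS alone. In every library column 100% of values were whole multiples of 1 read (tolerance 0.001). The LPS reads were the same in both tables, so all 9 libraries could be joined over 21434 shared genes.

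Genes with a mean of at least 1 in either group were tested with limma 3.58.1 in R 4.3.3 (trend and robust) on log2(value + 1), in the 3 libraries of each group, with Benjamini-Hochberg adjustment over all genes and a threshold of 0.05. The first 2 comparisons used the deposited values. LPS with NCT503 against untreated cells, and all printed levels, used median-of-ratios size factors over 9 libraries. This moved the members' fold changes by -0.0062 and -0.0021 on the log2 scale. edgeR 4.0.16 and DESeq2 1.42.0 were run on the recovered reads as alternatives. The script was tested on simulated data.

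The members, the gene lists and the tests were chosen with earlier results of these data known. All called members are named. Full values are given for Polr1a to Polr1e, Ncl, Npm1, Fbl, Dkc1, Gnl3, Pes1, Bop1 and Wdr12 and for the 3 largest rises and falls of a comparison with a mean of at least 100 normalized reads, and those of the others were added after their values were seen. Genes outside the 42 are at most 2 of each list and comparison with the smallest p, and Myc, Rrn3 and Ubtf.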

Additional observations from a re-analysis of the deposited data

How the results depend on the processing

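Of 42 members, 10 of the 17 that rose with NCT503 over LPS alone were called without each single library (Polr1c, Gnl3, Wdr12, Ncl, Nolc1, Npm1, Nop14, Utp14a, Utp15 and Utp18), and 1 of the 4 that fell (Rrp7a). For LPS alone over untreated cells these were 6 of 6 and 7 of 13, and for LPS with NCT503 over untreated cells 8 of 13 and 1 of 3. The cause of the changes below was not tested.

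For LPS alone over untreated cells, the median of the members was -0.42 with TMM scaling and -1.02 with CPM scaling, where 35 members were called, 1 higher and 34 lower, as were 52.3% of all genes, 10.3% higher and 42% lower. At an absolute log2 fold change of at least 1, 7 were called, 1 higher and 6 lower, against 13.6% and 15% of all genes. Without each library, 8 to 19 were lower, against 15.4% to 22.1% of all genes. The members' median ran from -0.44 to -0.24. For LPS with NCT503 over LPS alone, CPM scaling gave a median of 0.54 and 1 lower (10.6% of all genes). A change of at least 1 gave 11 called, 9 higher and 2 lower, against 12.6% and 9.51% of all genes. Without each library 12 to 20 were called, 10 to 17 higher and 1 to 4 lower, with medians of 0.22 to 0.43. Of all genes, 11.2% to 18.9% were then higher and 10.7% to 17.9% lower. For LPS with NCT503 over untreated cells the median was 0.12 with TMM and -0.25 with CPM (2 higher and 14 lower, against 12.3% and 33% of all genes). With quantile normalization it was -0.054, with 8 higher (18% of all genes), and edgeR called 5 lower (28.3%). A change of at least 1 left 4 called, 3 higher and 1 lower, against 14.6% and 12.9% of all genes. Without each library 9 to 24 were called, 8 to 15 higher and 1 to 9 lower, with medians of 0.12 to 0.26. Of all genes, 15.4% to 23% were then higher and 13.6% to 22.5% lower.

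Signs turned for some genes, among them Snu13, Ruvbl2, Nufip1 and Ubtf, which were called higher with LPS alone than in untreated cells (0.65, 0.60, 0.50 and 0.46). For LPS alone over untreated cells, CPM scaling gave Polr1d -0.64, Rrp36 -0.35, Ubtf -0.24, Rrn3 -0.25, Ruvbl2 -0.10, Nufip1 -0.20, Snu13 -0.056 and Maf1 -0.63. TMM gave Polr1d -0.043 and Maf1 -0.029, quantile normalization Polr1d -0.17, Ubtf -0.19 and Maf1 -0.40, and DESeq2 Fbl 9.1e-05. For LPS with NCT503 over LPS alone, quantile normalization gave Polr1e -0.046 and CPM gave Mycl 0.13. For LPS with NCT503 over untreated cells, CPM gave Polr1c -0.038, Polr1d -0.25, Rrp7a -0.36 and Fbl -0.26, and quantile normalization Rrp7a -0.20. Leaving out 1 library, for LPS alone over untreated cells Polr1d ran from -0.026 to 0.15, Fbl from -0.092 to 0.065 and Maf1 from -0.094 to 0.20. For LPS with NCT503 over LPS alone Polr1e ran from -0.024 to 0.39, Wdr43 from -0.10 to 0.23 and Rrn3 from -0.0055 to 0.22, and for LPS with NCT503 over untreated cells Bop1 ran from -0.41 to 0.021 and Rrp7a from -0.058 to 0.20.

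Whether the replicate numbers pair the libraries is not stated in the labels. Correlations of same-numbered deviations ran from -0.23 to 0.37, and not every library correlated best with its own number. Libraries 1 and 2 of LPS with NCT503 did so with LPS alone (0.369 and 0.318). With 3 libraries per group these values cannot settle the pairing. With the replicate number as a block, 24, 23 and 14 members were called for LPS alone over untreated cells, LPS with NCT503 over LPS alone and LPS with NCT503 over untreated cells. In all, 9714, 8186 and 8098 genes were called, against 8355, 6449 and 8061 without the block.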
